A study of Homo sapiens with 6 samples.

Results

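Collagens and laminins are the structural proteins of the extracellular matrix, and 53 of their genes were measured alone by at least 1 probe set among the 18417 genes tested. They were taken by name: 43 collagen chains (COL, a number, A, a number) and 10 laminin chains (LAMA, LAMB or LAMC and a number). RNA from THP-1, a human line grown from a monocytic leukaemia, was hybridised to 6 single-channel Affymetrix arrays. The 3 arrays of PMA-differentiated cells hold cells given 200 nM of the protein kinase C activator PMA (a phorbol ester) for 3 days and then kept for 3 days without it. The 3 arrays of unstimulated cells hold the same line without PMA. The culture medium was the same in both groups: RPMI, to which 10% FBS, glutamate at 2.5 mM and mercaptoethanol at 0.05 mM had been added. THP-1 is 1 leukaemia line, so neither group stands for macrophages of a person, and the labels do not say that replicates came from separate cultures. The p-values therefore rest on how far these arrays of a group differ, a spread that may be technical only. Precision is limited by there being 3 arrays a group.

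Each collagen molecule is a triple helix wound from chains that may come from different genes, so a cell needs all the chains of a trimer to secrete it. Fibrillar collagens make up tendon, bone and scar, type IV collagens form the sheet of basement membranes, and type VI collagens form beaded filaments around cells. Laminins are crosses of an alpha, a beta and a gamma chain and form the other sheet of basement membranes. Fibroblasts, epithelia and endothelia are the usual makers of matrix, while human macrophages are known to secrete type VI collagen.

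Pearson's r over 33297 probe sets lay between 0.988 and 0.995 for arrays of 1 group and between 0.958 and 0.968 for arrays of different groups, and array medians lay between 6.10 and 6.25 on the log2 scale. Markers of the monocyte line were in place. Of the 10 genes in the monocyte and macrophage list 8 were measured. Of these 8, 4 rose and 1 fell, LYZ (log2 fold change -2.76 ± 0.13, SE, adjusted p = 8.72e-06). All 8 monocyte and macrophage markers measured lay above the stricter of the background limits given below on all PMA arrays, and 6 of the 8 did so on all unstimulated arrays. Of 8 fibroblast markers, 2 rose and 1 fell, and the mean of the list lay at 5.61 to 6.11 on PMA arrays and at 5.32 to 5.37 on unstimulated arrays. The marker that rose most was the growth factor receptor PDGFRA (log2 fold change 3.15 ± 0.36, SE, adjusted p = 0.000635), while the matrix proteoglycan LUM was at 3.10 to 3.27 on PMA arrays and at 3.05 to 3.24 on unstimulated arrays. PDGFRA lay under the lower of the background limits given below on 2 of the 3 unstimulated arrays, so the size of its rise is not exact. LUM, TCF21 and DCN lay under that limit on all 6 arrays. PDGFRB, THY1 and FBLN1 lay above it on all 6, and the transcription factor TWIST1, at 8.29 to 8.99 on PMA arrays and 8.46 to 8.71 on unstimulated arrays, lay above the stricter limit as well. Of 8 endothelial markers 1 rose and none fell, and of 8 epithelial markers none rose and 1 fell. The endothelial list had a mean of 5.08 to 5.32 on PMA arrays and 4.84 to 5.04 on unstimulated arrays, and the epithelial list 5.43 to 5.58 on PMA arrays and 5.60 to 5.72 on unstimulated arrays. Of the endothelial list, VWF, TEK, ERG and EMCN lay under the lower limit on all 6 arrays, CDH5 and CLDN5 lay above it on all 6, and TIE1 did so on all PMA arrays but on 1 unstimulated array only. The receptor KDR was at 4.96, 5.07 and 6.32 on PMA arrays, against 4.46, 4.83 and 4.64 on unstimulated arrays, above the limit on PMA replicate 3 alone. Of the epithelial list, EPCAM, CDH1 and KRT5 lay under the lower limit on all 6 arrays, GRHL2 on all but PMA replicate 1, and the keratins KRT8, KRT18, KRT19 and KRT14 lay above it on all 6. The part of these other cell type genes in the results was not tested.

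The first question was which matrix genes gave a signal above background. The table holds no detection call, so values were set against the 95th percentile, on each array, of gene families known from the nose and the hair. The 341 olfactory receptor genes gave a limit of 5.13 to 5.38, and the 67 keratin-associated protein genes, which encode hair proteins, gave a much higher one of 7.49 to 8.04. By the olfactory receptor limit, 32 of the 53 genes lay above background on all 3 PMA arrays (60.4%, against 71.9% of all genes), and 31 on all 3 unstimulated arrays (58.5%, against 72.8%). By the keratin-associated limit only 5 did so in PMA cells (9.43%, against 33.3% of all genes) and 2 in unstimulated cells (3.77%, against 28.3%). Those 5 were COL6A1, COL6A2, COL4A2, COL9A2 and LAMC1, and the 2 in unstimulated cells were COL9A2 and LAMC1. Probe sets differ in how brightly they bind, so these limits are rough, and a gene between them cannot be called on or off.

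The members closest to the limits show how fine the lines are. COL10A1 cleared the olfactory receptor limit by 0.02 on its nearest PMA array and COL4A3 missed it by a margin of -0.02. Above the keratin-associated limit, COL9A2 was the PMA member with the smallest margin (0.26), and COL23A1 was the nearest below it (-0.28). In unstimulated cells COL6A1 missed that limit by a margin of only -0.0053.

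**Figure D1:**
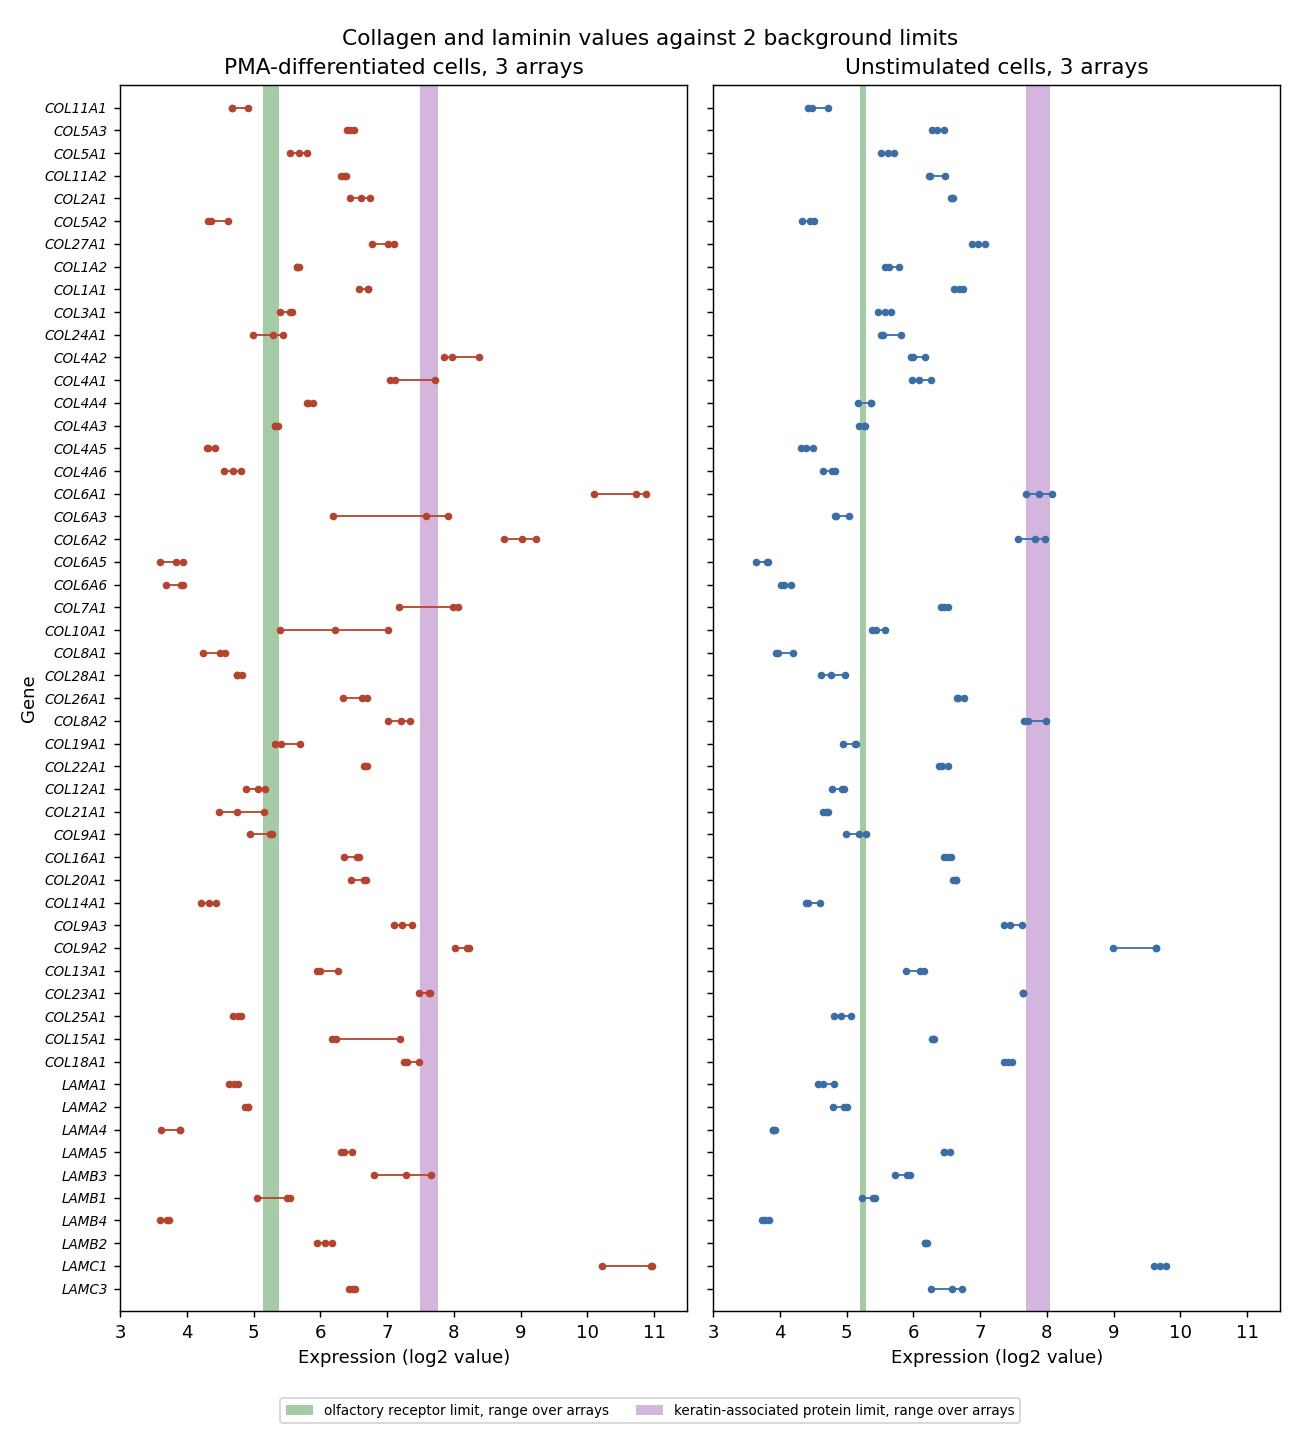
Log2 expression value of each collagen and laminin gene on the 3 PMA arrays (left, red) and the 3 unstimulated arrays (right, blue), with lines spanning the arrays. The green and purple bands are the ranges over arrays of the olfactory receptor limit (5.13 to 5.38 over both groups) and the keratin-associated protein limit (7.49 to 8.04). In PMA cells 5 genes lie wholly above the keratin-associated limit, and in unstimulated cells 2 do.

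The second question was which of these genes differed between PMA-differentiated and unstimulated cells. Type VI collagen chains, the COL4A1 and COL4A2 pair, COL7A1, LAMB3 and LAMC1 were higher with PMA, COL9A2 and COL8A2 were lower, and no fibrillar collagen passed the test. At an adjusted p of 0.05 in limma, 13 of the 53 members passed, or 24.5%. Of all genes 26.4% passed, a share near that of the members. By direction, 11 members were higher (20.8%, against 13.2% of all genes) and 2 were lower (3.77%, against 13.2%). At least 2-fold changes were found for 8 members upwards (15.1%, against 5.17% of all genes) and 1 downwards (1.89%, against 3.2%). The PMA arrays all lay above the unstimulated arrays for 13 members (24.5%, against 19.2% of all genes) and all below them for 6 (11.3%, against 22% of all genes). The median log2 fold change was 0.0034 over the members and -0.03 over all genes. With arrays centred on their medians, 61.8% of the genes called were higher instead of 50.1%, and 12 members were then higher and 2 lower. In bulk RNA, a change in the number of cells that express a gene and a change in RNA per cell cannot be told apart.

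**Figure D2:**
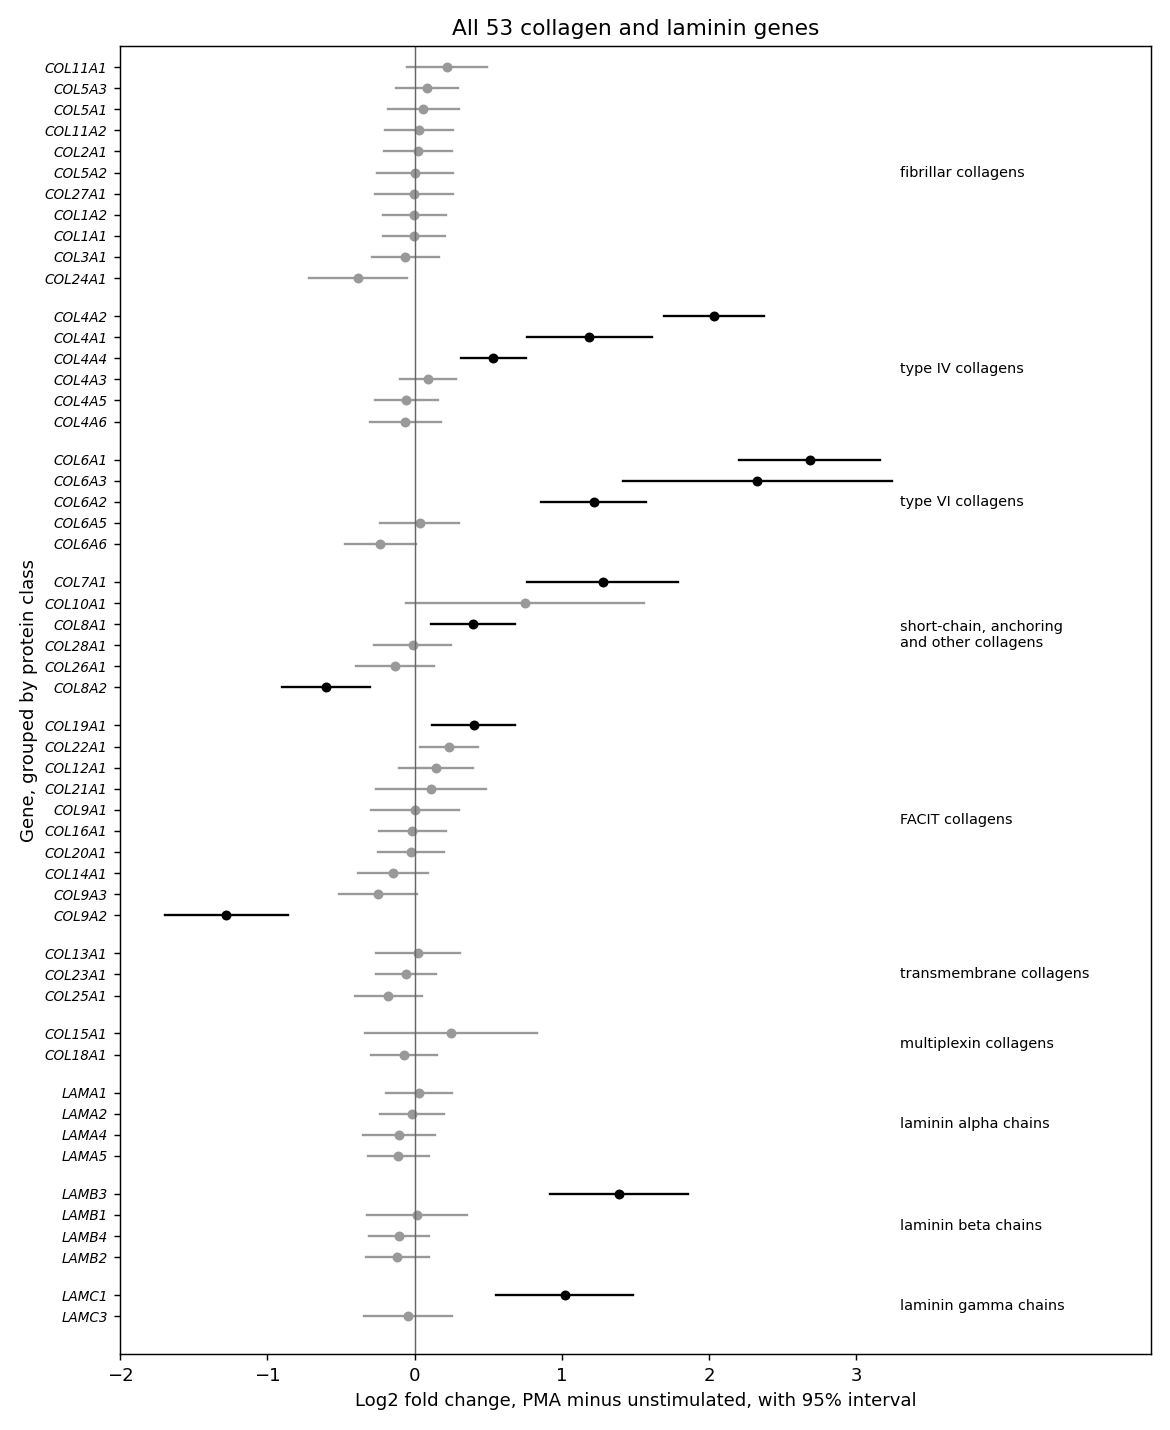
Log2 fold change, PMA minus unstimulated (3 arrays each), of all 53 genes by protein class, with the 95% interval of the limma fit. Black marks genes past an adjusted p of 0.05. The 11 fibrillar collagens lie between -0.39 (COL24A1) and 0.22 and none passed, whereas COL6A1, COL6A3 and COL4A2 lie above 2.

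Of the 5 type VI collagen chains, 3 were higher and none lower. The core molecule is built from the chains COL6A1, COL6A2 and COL6A3, and all 3 rose. COL6A1 stood at 10.72, 10.88 and 10.10 on the PMA arrays, against 7.69, 8.08 and 7.87 on the unstimulated arrays, so the groups were far apart. Its mean was 10.57 ± 0.41 in PMA cells and 7.88 ± 0.20 in unstimulated cells (SD, n = 3 each), a log2 fold change of 2.69 ± 0.21 (SE), or 6.43-fold (adjusted p = 8.81e-05). The chain COL6A2, encoded on the same chromosome, was at 9.02, 9.23 and 8.75 on PMA arrays, against 7.57, 7.97 and 7.82 on unstimulated arrays. Every PMA value again lay above every unstimulated one, and COL6A2 rose by 1.22 ± 0.15 on the log2 scale (adjusted p = 0.000991).

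COL6A3, the largest chain, whose cleaved end is the fragment endotrophin, was at 7.92, 7.58 and 6.18 on PMA arrays, against 4.85, 5.04 and 4.82 on unstimulated arrays. The replicate 3 array of PMA cells stood well below the other PMA arrays, yet above all unstimulated arrays. The log2 fold change was 2.33 ± 0.39 (adjusted p = 0.00383), and it was 2.85 without PMA replicate 3. When the variance of each gene was estimated from its own 6 values alone, COL6A3 did not pass (adjusted p = 0.0659). All unstimulated values lay below the olfactory receptor limit, so the fold change is set against background and its upper end is not firm. The other chains that can stand in for COL6A3 gave no such signal. COL6A5 (3.59 to 3.94 on PMA arrays, 3.64 to 3.82 on unstimulated arrays) and COL6A6 (3.69 to 3.95 on PMA arrays, 4.01 to 4.16 on unstimulated arrays) stayed below that limit on all 6 arrays and did not pass, although the COL6A6 values of PMA cells were all the lower ones.

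The promoters of COL6A2 and COL6A3 are printed because these genes rose together. COL6A1 had no entry in the promoter table. The sequences are the 250 bases before the annotated start in RefSeq (GRCh38.p14), 5′ to 3′ on the gene's strand, at chr21:46097862-46098111 on the plus strand for COL6A2 and chr2:237414165-237414414 on the minus strand for COL6A3. Capitals mark matches, on either strand, to 3 motifs. The first is GGGCGG, known as the GC box, the next is TATAAA, found near many starts, and the last is TGANTCA, bound by AP-1 factors, where N is any base.
COL6A2: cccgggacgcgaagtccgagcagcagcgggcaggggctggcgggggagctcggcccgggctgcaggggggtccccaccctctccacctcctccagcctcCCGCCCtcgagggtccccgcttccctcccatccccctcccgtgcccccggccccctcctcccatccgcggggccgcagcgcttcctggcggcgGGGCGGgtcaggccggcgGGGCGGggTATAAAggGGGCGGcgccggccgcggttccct
COL6A3: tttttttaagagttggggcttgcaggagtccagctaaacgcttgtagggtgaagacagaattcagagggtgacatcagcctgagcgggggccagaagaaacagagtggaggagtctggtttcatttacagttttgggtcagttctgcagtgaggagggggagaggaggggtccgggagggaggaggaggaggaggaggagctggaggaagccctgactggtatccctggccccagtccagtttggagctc

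The window of COL6A2 is 79.6% G and C and holds 4 GGGCGG matches and 1 TATAAA match, whose first base lies at position -32 from the start. The window of COL6A3 is 56% G and C and holds none of the 3 motifs. Of 35116 promoters in the table, 42.6% held GGGCGG, 10.7% held TATAAA and 6.57% held TGANTCA in the same window. Of the 53 members, 39 had an entry, and 26 of these held GGGCGG, 6 TATAAA and 2 TGANTCA in at least 1 window. Some members have several windows, so these counts by gene cannot be set against the shares by promoter. Matches are a description of letters and not of binding.

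Type IV collagen is the net of basement membranes, and 3 of its 6 chains were higher. The 6 genes lie head to head in 3 pairs, and the trimer found in most basement membranes is made of COL4A1 and COL4A2. COL4A2 was at 7.86, 7.97 and 8.38 on PMA arrays, against 5.96, 6.17 and 5.99 on unstimulated arrays. With a mean of 8.07 ± 0.28 in PMA cells and 6.04 ± 0.11 in unstimulated cells (SD, n = 3 each), it rose by 2.03 ± 0.15 on the log2 scale, or 4.09-fold (adjusted p = 6.74e-05). COL4A1 was at 7.11, 7.05 and 7.72 on PMA arrays, against 6.27, 6.08 and 5.97 on unstimulated arrays, and its groups did not overlap either. Its log2 fold change was 1.19 ± 0.18 (adjusted p = 0.00252).

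The starts of COL4A1 and COL4A2 lie 126 bases apart on opposite strands, and the stretch between them, chr13:110307158-110307283 of GRCh38.p14, is shown because both genes rose. It is printed on the plus strand, from the COL4A1 side to the COL4A2 side, with the GGGCGG match in capitals.
COL4A1-COL4A2: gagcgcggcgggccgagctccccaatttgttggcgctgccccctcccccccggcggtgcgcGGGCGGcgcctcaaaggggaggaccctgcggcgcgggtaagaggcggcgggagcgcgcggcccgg
It is 80.2% G and C and holds 1 GGGCGG match and neither TATAAA nor TGANTCA. The match begins at position -65 from the COL4A2 start and at -67 from the COL4A1 start, near the middle of the stretch.

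The other type IV pairs, known from kidney, lung and eye basement membranes, held 1 gene that passed. COL4A4 was at 5.89, 5.81 and 5.80 on PMA arrays, against 5.17, 5.37 and 5.36 on unstimulated arrays, a rise of 0.53 ± 0.10 on the log2 scale (adjusted p = 0.00494). These values lie close to the olfactory receptor limit, which COL4A4 cleared on all PMA arrays but not on all unstimulated arrays. Its head-to-head partner COL4A3, 418 bases away between starts, was at 5.31 to 5.36 on PMA arrays and 5.19 to 5.27 on unstimulated arrays and did not pass (0.09 ± 0.08, adjusted p = 0.489). COL4A5 and COL4A6, the X-linked pair, stayed below the olfactory receptor limit on all arrays, with log2 fold changes of -0.06 ± 0.09 and -0.06 ± 0.10 (adjusted p = 0.72 and 0.733).

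Among laminins, 1 beta and 1 gamma chain rose and no alpha chain did. LAMC1, the gamma chain shared by most laminins, was at 10.97, 10.96 and 10.21 on PMA arrays, against 9.70, 9.60 and 9.78 on unstimulated arrays. It was thus above both background limits before PMA, and rose by 1.02 ± 0.20 on the log2 scale, or 2.03-fold (adjusted p = 0.00773). With its own variance alone it did not pass (adjusted p = 0.0777). LAMB3, a beta chain known from the laminin that anchors epithelia to their base, was at 7.66, 7.29 and 6.81 on PMA arrays, against 5.95, 5.73 and 5.90 on unstimulated arrays, and its groups stood clearly apart. Its log2 fold change was 1.39 ± 0.20 (adjusted p = 0.00189). LAMA3, a laminin alpha chain, was not analysed here.

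The promoter table gives 3 starts for LAMB3, and 1 of them carried the only TGANTCA match among the 11 called members with an entry. That window is printed for this reason, with matches to TGANTCA and GGGCGG in capitals (chr1:209651375-209651624 of GRCh38.p14, minus strand).
LAMB3: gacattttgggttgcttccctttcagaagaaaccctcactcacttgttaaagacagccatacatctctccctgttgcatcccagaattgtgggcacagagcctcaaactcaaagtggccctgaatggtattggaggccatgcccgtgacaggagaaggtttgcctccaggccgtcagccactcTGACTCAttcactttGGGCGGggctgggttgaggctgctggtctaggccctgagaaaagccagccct
The TGACTCA letters begin at position -67 from that start. Which start these cells use was not measured by the arrays.

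A laminin needs an alpha chain, and none of the 4 alpha chains measured lay above the keratin-associated limit in either group. LAMA3, the alpha chain that shares a trimer with LAMB3, was not among them. LAMA5, the alpha chain of adult basement membranes, was at 6.30, 6.35 and 6.47 on PMA arrays, against 6.45, 6.55 and 6.46 on unstimulated arrays (log2 fold change -0.11 ± 0.09, adjusted p = 0.441). It was the only alpha chain above the olfactory receptor limit. LAMB3 did not clear the keratin-associated limit on every PMA array either. Genes between the limits, LAMA5 among them, cannot be called on or off. LAMA1, LAMA2 and LAMA4 had log2 fold changes of 0.03, -0.02 and -0.11, with adjusted p-values of 0.872, 0.918 and 0.543. Among the other beta chains, LAMB1 was at 5.55, 5.50 and 5.05 on PMA arrays, against 5.43, 5.23 and 5.39 on unstimulated arrays, and the groups overlapped. LAMB2 (6.06 ± 0.11 in PMA cells, 6.18 ± 0.01 in unstimulated cells, SD, n = 3 each) and LAMB4 did not pass, although LAMB2 was lower on every PMA array than on any unstimulated one, nor did the gamma chain LAMC3 (adjusted p = 0.853).

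COL7A1, which forms the fibrils that tie skin epithelium to the dermis, was at 8.06, 7.98 and 7.17 on PMA arrays, against 6.41, 6.51 and 6.46 on unstimulated arrays. It rose by 1.28 ± 0.22 on the log2 scale (adjusted p = 0.00421), with no overlap of the groups, but it did not pass with its own variance alone (adjusted p = 0.0618). The short-chain collagens of type VIII, known from the vessel wall and the cornea, went opposite ways. COL8A2 was lower, at 7.01, 7.21 and 7.34 on PMA arrays, against 7.99, 7.72 and 7.65 on unstimulated arrays (log2 fold change -0.60 ± 0.13, adjusted p = 0.0108), and it too did not pass with its own variance alone (adjusted p = 0.0671). COL8A1 was higher by 0.40 ± 0.12 (adjusted p = 0.0478), but at 4.23 to 4.56 on PMA arrays and 3.94 to 4.19 on unstimulated arrays all of its values lay below the olfactory receptor limit. Its call was lost without PMA replicate 1 (adjusted p = 0.151), PMA replicate 2 (0.152), unstimulated replicate 1 (0.104) or unstimulated replicate 2 (0.147).

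Of the members that did not pass, COL10A1, a collagen of growing cartilage, varied most among the PMA arrays. It was at 6.22, 7.02 and 5.40 on PMA arrays, against 5.43, 5.37 and 5.57 on unstimulated arrays. The PMA replicate 3 value lay within the unstimulated range while the others lay above it, and the change of 0.75 ± 0.35 did not pass (adjusted p = 0.165). The fit that left out PMA replicate 3 put the change at 1.16 on the log2 scale, past the threshold (adjusted p = 0.00509), whereas the fit that left out PMA replicate 2 put it at 0.35 (adjusted p = 0.373).

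FACIT collagens sit on the surface of fibrils. COL9A2, a chain of type IX collagen known from cartilage, was at 8.22, 8.19 and 8.01 on PMA arrays, against 8.99, 9.64 and 9.64 on unstimulated arrays. It was above both background limits in both groups and fell by 1.28 ± 0.18 on the log2 scale, or 2.43-fold (adjusted p = 0.00168). Neither of its partner chains passed. COL9A1 lay below the olfactory receptor limit on at least 1 array of each group (0.00 ± 0.13, adjusted p = 0.988), where a fall would be hard to see. COL9A3 was at 7.10, 7.22 and 7.37 on PMA arrays, against 7.45, 7.62 and 7.35 on unstimulated arrays. Its change had the same direction as that of COL9A2 (-0.25 ± 0.11, adjusted p = 0.163). COL19A1 was higher by 0.40 ± 0.12 (adjusted p = 0.0442), at 5.32 to 5.69 on PMA arrays and 4.95 to 5.14 on unstimulated arrays. It did not clear the olfactory receptor limit on every array of either group, and its call was lost without any 1 of the arrays other than PMA replicate 3 (adjusted p 0.0852 to 0.13).

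Of the remaining FACIT collagens, COL22A1 came closest, at 6.67, 6.70 and 6.66 on PMA arrays, against 6.39, 6.51 and 6.43 on unstimulated arrays. The groups did not overlap, but the change of 0.23 ± 0.08 did not pass (adjusted p = 0.0813). It passed with each array centred on its median (0.32, adjusted p = 0.0283), with quantile normalization repeated (0.30, adjusted p = 0.0259) and with cyclic loess (0.32, adjusted p = 0.0224). It also passed with its own variance alone (adjusted p = 0.036).

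Fibrillar collagens are the scaffold of connective tissue. None of the 11 passed, with log2 fold changes of -0.39 to 0.22 and a lowest adjusted p of 0.0876, and values of 4.32 to 7.10 on PMA arrays and 4.33 to 7.07 on unstimulated arrays. COL1A1, the main chain of bone and skin collagen, was at 6.58, 6.72 and 6.72 on PMA arrays, against 6.60, 6.68 and 6.74 on unstimulated arrays. Its log2 fold change of -0.0046 had a 95% interval of -0.22 to 0.21, and that of its partner COL1A2 also ran from -0.22 to 0.21. COL3A1, the fibre of vessels and young scars, had an interval of -0.29 to 0.17. COL24A1 had the lowest adjusted p of the class: it was at 4.99, 5.45 and 5.28 on PMA arrays, against 5.55, 5.51 and 5.82 on unstimulated arrays (log2 fold change -0.39 ± 0.14, adjusted p = 0.0876). The PMA values were all the lower ones, and it passed with array quality weights (adjusted p = 0.0336). COL2A1, COL5A1, COL5A3, COL11A2 and COL27A1 lay above the olfactory receptor limit in both groups, with the lowest adjusted p among them at 0.583. No fibrillar collagen lay above the keratin-associated limit in either group.

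The transmembrane and multiplexin collagens measured did not pass either (COL17A1, a transmembrane collagen, was not analysed). Nor did COL16A1, COL20A1 and COL26A1, which also lay above the olfactory receptor limit in both groups (adjusted p of 0.937, 0.892 and 0.478). COL18A1, whose end is released as endostatin, was at 7.26, 7.30 and 7.48 on PMA arrays, against 7.42, 7.48 and 7.35 on unstimulated arrays, with a 95% interval of -0.30 to 0.15 for the log2 fold change. COL15A1 was at 6.17, 7.20 and 6.24 on PMA arrays, against 6.27, 6.29 and 6.30 on unstimulated arrays, so 1 PMA array alone stood high (adjusted p = 0.55). COL23A1 and COL13A1, which span the cell membrane, had log2 fold changes of -0.06 ± 0.09 and 0.02 ± 0.12. Over all 40 members that did not pass, log2 fold changes ran from -0.39 to 0.75, the 95% interval lay within 0.5 of 0 for 36 and within 1 for 39, and 2 had an unadjusted p under 0.05.

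The members that rose did not follow 1 pattern among the PMA arrays. The replicate 3 array was the lowest of the PMA arrays for 9 of the 11 members that were higher and the highest for the other 2, COL4A1 and COL4A2. Among all 2431 genes called higher it was the lowest for 55.3% and the highest for 27.1%. COL6A3, COL7A1, LAMB3, LAMC1 and COL6A1 were thus lowest on the same array on which the type IV pair peaked. Without that array and unstimulated replicate 1, a pair to leave out that was chosen with earlier results of these data known, 12 members were higher and 2 lower. The log2 fold change was then 2.82 for COL6A1, 2.82 for COL6A3, 1.84 for COL4A2 and 1.27 for LAMC1.

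**Figure D3:**
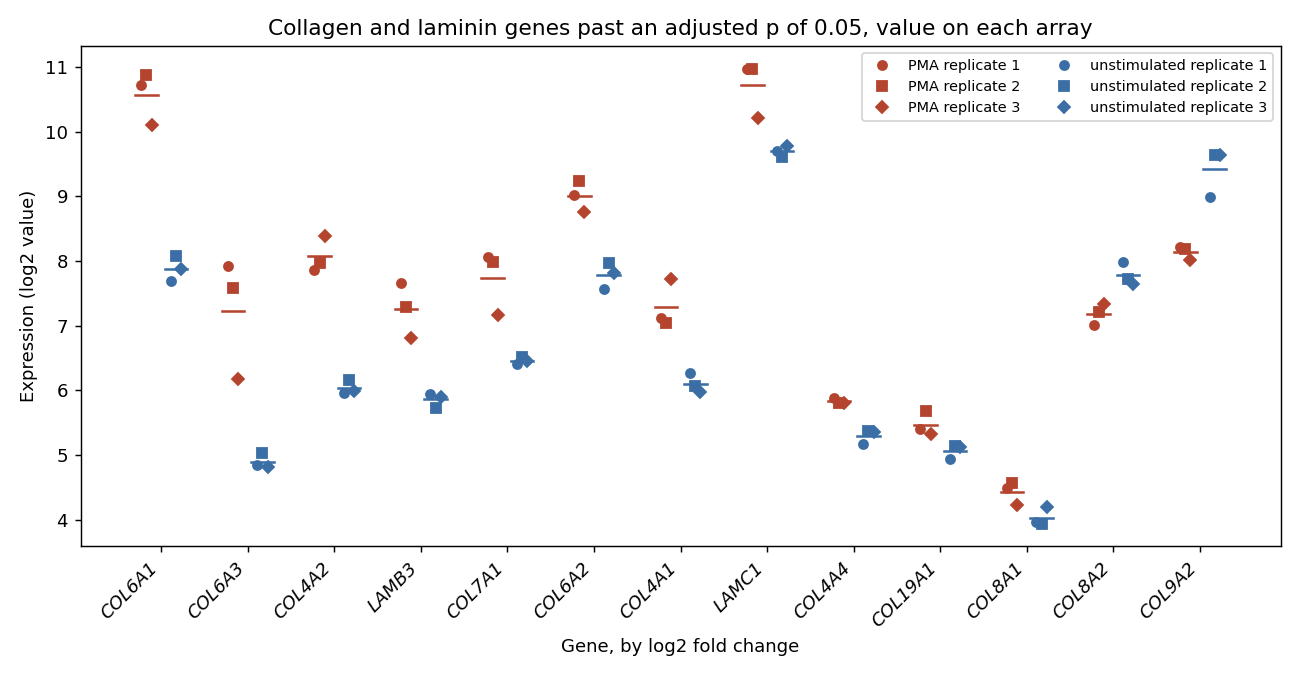
Log2 expression value on each array for the 13 genes past an adjusted p of 0.05, in order of log2 fold change, with PMA arrays (red) left of unstimulated arrays (blue), bars at group means and a marker shape for each replicate. The groups do not overlap for any of these genes. The PMA replicate 3 diamonds lie lowest for COL6A1, COL6A3, LAMB3, COL7A1 and LAMC1 and highest for COL4A1 and COL4A2.

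The machinery around these chains was counted over 6 lists. Of 73 genes measured, 22 were higher (30.1%, against 13.2% of all genes) and 8 lower (11%, against 13.2%). As the lists were chosen with earlier results of these data known, these shares are a description and not a test. The number lower was 4 if PMA replicate 1 or unstimulated replicate 3 was left out, and 5 if unstimulated replicate 2 was. Collagen chains are hydroxylated and folded in the endoplasmic reticulum, and in that list 4 of 18 genes were higher and 3 lower, with a median log2 fold change of -0.05. P3H2, a prolyl hydroxylase that acts on type IV collagen, was at 9.50, 10.15 and 7.49 on PMA arrays, against 5.50, 5.56 and 5.55 on unstimulated arrays. It rose by 3.51 ± 0.58 on the log2 scale (adjusted p = 0.00346), and by 4.29 without PMA replicate 3, the lowest of its PMA arrays. With its own variance alone it did not pass (adjusted p = 0.0648). P4HA1, the catalytic subunit of the main prolyl hydroxylase, went the other way (-1.20 ± 0.28, adjusted p = 0.016), and its call was lost without PMA replicate 1, unstimulated replicate 2 or unstimulated replicate 3. The folding enzyme FKBP14 (0.79 ± 0.19) and the prolyl hydroxylase P4HA2 (0.49 ± 0.13) were higher, with adjusted p-values of 0.0169 and 0.0307. P4HB (-0.50 ± 0.09) and P3H1 (-0.35 ± 0.11) were lower, with adjusted p-values of 0.00579 and 0.0423. Whether the P4HA2 and P3H1 calls, both near the threshold, hold with 1 array left out was not examined. The FKBP14 call was lost without PMA replicate 1, PMA replicate 2, unstimulated replicate 2 or unstimulated replicate 3.

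In the list of procollagen export, trimming and cross-linking, 5 of 20 genes were higher and none lower, with a median of 0.01. The cross-linking transglutaminase TGM2 was at 11.09, 10.80 and 9.44 on PMA arrays, against 6.70, 7.09 and 7.12 on unstimulated arrays (3.47 ± 0.39, adjusted p = 0.000547). The lysyl oxidase family member LOXL4 rose by 1.69 ± 0.25 (adjusted p = 0.0022), and PCOLCE2, an enhancer of procollagen trimming, by 0.99 ± 0.23 (adjusted p = 0.0165). The PCOLCE2 call was lost without PMA replicate 1, PMA replicate 2, unstimulated replicate 2 or unstimulated replicate 3. Among 10 collagen receptors, 3 were higher and 1 lower. The integrin chain ITGA2 rose by 2.07 ± 0.10 (adjusted p = 1.24e-05) and its partner ITGB1 by 1.48 ± 0.17 (adjusted p = 0.000572). Another collagen-binding integrin chain, ITGA11, rose by 0.90 ± 0.12 (adjusted p = 0.00136). The inhibitory collagen receptor LAIR1 fell by 0.42 on the log2 scale (adjusted p = 0.047), a call lost under each of the 3 rescalings and without any 1 array other than PMA replicate 3.

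Of 6 laminin receptors, 2 were higher and 2 lower. ITGA3, an integrin chain that binds laminins, was at 11.17, 10.42 and 10.26 on PMA arrays, against 5.86, 6.09 and 5.76 on unstimulated arrays, a log2 fold change of 4.71 ± 0.23. ITGA6, the alpha chain of laminin-binding integrins, was at 9.36, 9.30 and 8.64 on PMA arrays, against 7.08, 6.54 and 6.64 on unstimulated arrays (2.35 ± 0.22, adjusted p = 0.00023). The integrin chain ITGA7 was lower (-0.74 ± 0.12, adjusted p = 0.00329). The other that was lower, SV2A (-1.02 ± 0.18, adjusted p = 0.00521), is known as a synaptic vesicle protein. Of 12 other basement membrane and collagen-bound proteins, 2 were higher and 2 lower, with a median of -0.04. NID1, the link between the laminin and type IV nets, was at 8.97, 9.39 and 8.78 on PMA arrays, against 10.58, 10.70 and 10.75 on unstimulated arrays. It fell by 1.63 on the log2 scale (adjusted p = 0.000263), the opposite direction to COL4A1, COL4A2 and LAMC1. The heparan sulphate proteoglycan AGRN rose by 1.25 ± 0.16 (adjusted p = 0.00117) and the collagen-binding protein SPARC was 2.83-fold higher (adjusted p = 0.000144). SPARC was at 6.95, 6.76 and 6.50 on PMA arrays, against 5.30, 5.19 and 5.21 on unstimulated arrays, and as the unstimulated values lie at the olfactory receptor limit its fold is not exact. FBLN1, a basement membrane glycoprotein, was lower (-0.44 ± 0.12, adjusted p = 0.0301), and whether its call holds with 1 array left out was not examined. Of 7 collagenases and gelatinases, which cut these proteins, 6 were higher and none lower, with a median of 2.87, and MMP13 alone did not pass. The largest changes were those of the secreted collagenases MMP8 (8.56 ± 0.21) and MMP1 (7.01 ± 0.18) and of the gelatinase MMP9 (5.09 ± 0.34). The unstimulated arrays held MMP8 at 3.16 to 3.29 and MMP1 at 4.48 to 4.64, below the olfactory receptor limit, so these differences are set against background and are not exact.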

How the data were processed

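The authors' deposited values are log2 values from RMA and Partek, as the submitters' processing notes name them, 1 for each probe set on each array; no version was named. Of 33297 probe sets, 19460 had 1 symbol in the platform annotation (19429 with a gene ID in the GRCh38.p14 table), 1754 several and 12083 none, and only the first kind was tested. For each of 18417 genes the probe set with the highest mean over the 6 arrays was used; among members only COL11A2 had several. Groups came from the sample titles. PMA minus unstimulated was fitted by limma 3.58.1 (R 4.3.3; lmFit and eBayes, group as the only term) and p-values were adjusted by Benjamini-Hochberg across all genes, with 0.05 as the threshold. Of these steps, only the limma fit and the adjustment were tested on simulated data. Those data had independent noise and fewer changed genes than were called here. Alternatives covered rescaling, dim genes, probe set choice, variance model, a replicate block, thresholds and left-out arrays. Members and gene lists were chosen with earlier results of these data known. Named were members past the threshold or above background, the nearest member on each side of a limit, trimer and promoter partners, and up to 3 genes a direction per list; other genes named were chosen after their values were seen. Promoter sequences are RefSeq's (GRCh38.p14), and 39 of 53 members matched.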

Additional observations from a re-analysis of the deposited data

How the results depend on the processing

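No called member changed direction under the 21 alternatives to the fit, and 5 of the 13 (COL4A2, COL6A1, COL6A2, COL9A2 and LAMB3) passed under each alternative that kept them. Leaving out 1 array gave 9 to 12 members higher and 2 lower, 15 to 24 list genes higher and 4 to 8 lower, and 1726 to 2593 genes higher and 1597 to 2449 lower in all, the lowest of these, 1597, without PMA replicate 1. Without PMA replicate 3 and unstimulated replicate 1 together, 3212 genes were higher and 3098 lower. With the gene-wise test without shared variance, 7 members were higher and 1 lower, 14 list genes higher and 3 lower, and 1385 genes higher and 1458 lower. With treat against a 1.5-fold change these counts were 5 and 1, 14 and 1, and 682 and 443. At an adjusted p of 0.01, 1 member and 4 list genes were lower, and 1509 genes were higher and 1315 lower. With genes below the median left out, 5 members were higher, since dim members were not tested. With every probe set, where more features were tested, 2658 of these were higher and 3854 lower. Why the count lower grew more was not tested. With arrays centred on their medians, 5 list genes were lower; the cause was not tested. With a replicate block, 10 members were higher and 2 lower, and COL8A1 lost its call (adjusted p = 0.0925). Same-numbered arrays' deviations from their group means correlated at 0.15, -0.04 and 0.09. From 3 arrays a group, such values cannot settle whether the numbers pair the samples. Against each array's median over all genes, 12 members lay above background in PMA cells and 9 in unstimulated cells, and against the keratin-associated limit 5 and 2. Against the olfactory receptor limit, leaving out 1 array gave 32 to 35 in PMA cells and 31 to 33 in unstimulated cells. Signal near background limits all of the dim members.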

Other observations

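COL11A2 had 2 further probe sets with identical values, dimmer than the one used. They were at 4.73, 4.77 and 5.47 on PMA arrays and at 5.03, 5.17 and 4.91 on unstimulated arrays, so only the PMA replicate 3 array stood higher.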
